A study of Mus musculus with 6 samples.

Results

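Growth arrest genes slow or stop the cell cycle, many of them as immediate responses to stress or to signals from receptors. The 10 genes described here were the stress-responsive polo-like kinases Plk2 and Plk3, the 3 members of the Gadd45 family (Gadd45a, Gadd45b and Gadd45g), Ppp1r15a, the antiproliferative genes Btg1 and Btg2, and the cyclin-dependent kinase inhibitors Cdkn1a and Cdkn1b. They were named as a list and chosen by the direction of their read counts in the comparison described here, with Plk2 higher and Gadd45g lower in WT cells, so the WT and KO values of these genes are given as a description, without a test. All 10 were among the 12431 genes of the count table.

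The cells were splenic follicular B cells (CD21/35- CD23+) of adult male mice, cultured for 1 h in complete RPMI medium with no added stimulus. WT cells came from Gpr174+/Y mice and KO cells from Gpr174-/Y mice, with 3 libraries of 3 mice per genotype. GPR174 is an X-linked receptor for lysophosphatidylserine that couples to the G protein Gαs, which raises cyclic AMP. In the KO allele an in-frame tdTomato replaced the single coding exon, in the germline, so every cell type of the mouse lacked the intact gene before and during culture. The line was made in embryonic stem cells of the 129 background and backcrossed to C57BL/6J. Reads were counted at the 3′ ends of polyadenylated RNA, and levels are given as CPM, the read count scaled to a common normalized library size. CPM allows a gene to be compared between libraries but not with another gene. Most abundant, as used below, refers only to the highest mean CPM in a list.

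Polo-like kinases are serine/threonine kinases named for their polo-box domain. Plk1 drives mitosis, whereas Plk2 and Plk3 are induced by stress and growth signals. GADD45 proteins are small acidic proteins that bind the kinase MTK1 upstream of p38 and JNK, as well as PCNA and p21. BTG proteins recruit the CCR4-NOT deadenylase to messenger RNA and are linked to quiescence of lymphocytes. p21 and p27, the products of Cdkn1a and Cdkn1b, bind cyclin-CDK complexes and hold cells in G1, and GADD34, the product of Ppp1r15a, brings protein phosphatase 1 to eIF2α and so restores translation after stress.

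The libraries held 8452460 to 10944833 counts. The second WT library stood apart from the rest: on the first principal component of the 500 most variable genes (40% of variance) it scored 32.54, against -8.18 to -4.33 for the other libraries, and the members are therefore also given without it. Gpr174 itself averaged 128 ± 7.43 CPM in WT cells and 99.95 ± 0.205 CPM in KO cells (SD, n = 3 each; log2 fold change 0.35 ± 0.09 SE, edgeR adjusted p = 0.0359), so RNA counted to the gene remained in the KO libraries, and these 3′ counts check the deletion only in part. The summed level of 6 follicular B cell markers was 3410 to 3521 CPM in WT and 3942 to 4048 CPM in KO libraries, with Cd79b lower in WT (log2 fold change -0.39). Plasma cell (118 to 127 and 104 to 119 CPM; 4 of 4 markers in the table), marginal zone B (1251 to 1342 and 1229 to 1423; 5 of 5), T (4.77 to 11.01 and 4.28 to 7.52; 5 of 6), myeloid (34.2 to 48.8 and 32.5 to 39.5; 6 of 6) and erythroid markers (2674 to 4707 and 3007 to 7549; 2 of 5) overlapped between WT and KO. NK markers (3 of 4) did not, at 7.04 to 10.85 CPM in WT and 5.17 to 5.64 CPM in KO libraries. Among these, Gzma alone was apart (means of 5.60 and 2.615 CPM, edgeR adjusted p = 0.235). Klrb1c and Nkg7 overlapped, and Nkg7 was in the other direction (log2 fold change -0.26). No listed marker in the table was at 0 in all libraries, but no gene of the table had fewer than 10 counts in all. This therefore says nothing about the cells present. The part of these markers in the results was not tested, and in bulk RNA fewer cells of a type cannot be told apart from less RNA per cell.

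In the fit across all 10514 genes tested (edgeR quasi-likelihood test, adjusted p under 0.05), 5 of the 10 genes were higher in WT, namely Plk2, Cdkn1a, Gadd45a, Btg2 and Ppp1r15a, against 1.3% of all genes tested. One, Gadd45g, was lower in WT, against 0.514% of all genes, and in either direction 6 of 10 were past the threshold against 1.82%. Gadd45b, Plk3, Btg1 and Cdkn1b were not. The 3 WT libraries all lay above the 3 KO libraries for 6 genes (8.43% of all genes tested) and all below for 1 gene (8.28%), and the libraries overlapped for Plk3, Btg1 and Cdkn1b. All 10 passed the filter on low counts, with mean counts of 148.7 to 11812 per library and no library under 86 counts. Their median log2 fold change was 0.49, and that of all tested genes -0.003. Since this contrast chose the genes, nothing is read from these shares.

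**Figure D1:**
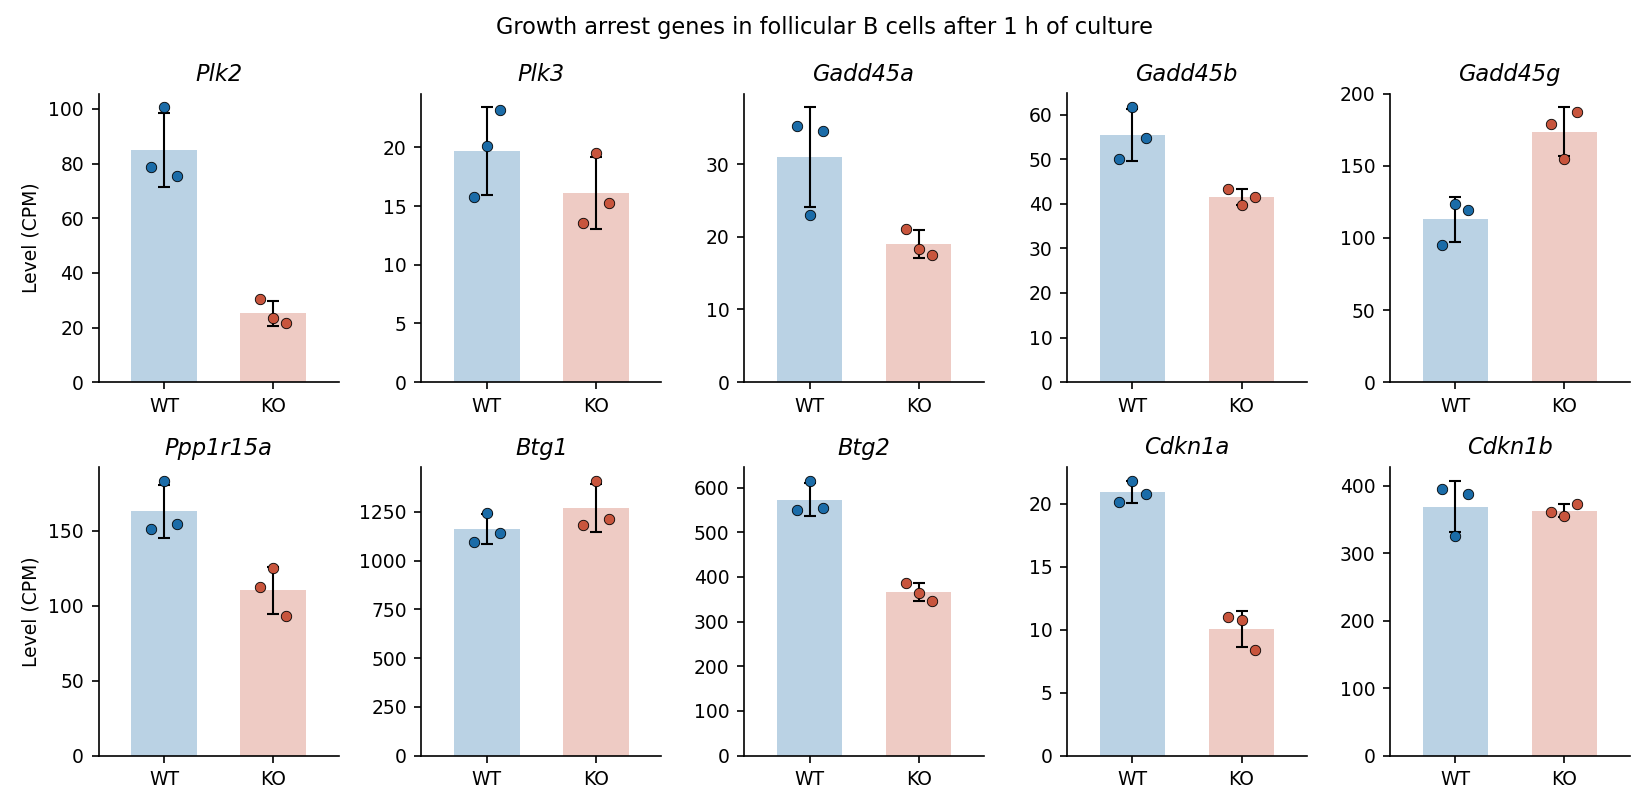
Levels (CPM, linear axes from 0) of the 10 growth arrest genes in WT and KO follicular B cells; bars are means of 3 libraries, error bars the SD and points single libraries. Plk2 lay between 75.5 and 101 CPM in WT and between 21.7 and 30.5 CPM in KO libraries, Gadd45g showed the opposite order, and the points of Plk3, Btg1 and Cdkn1b overlapped.

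**Figure D2:**
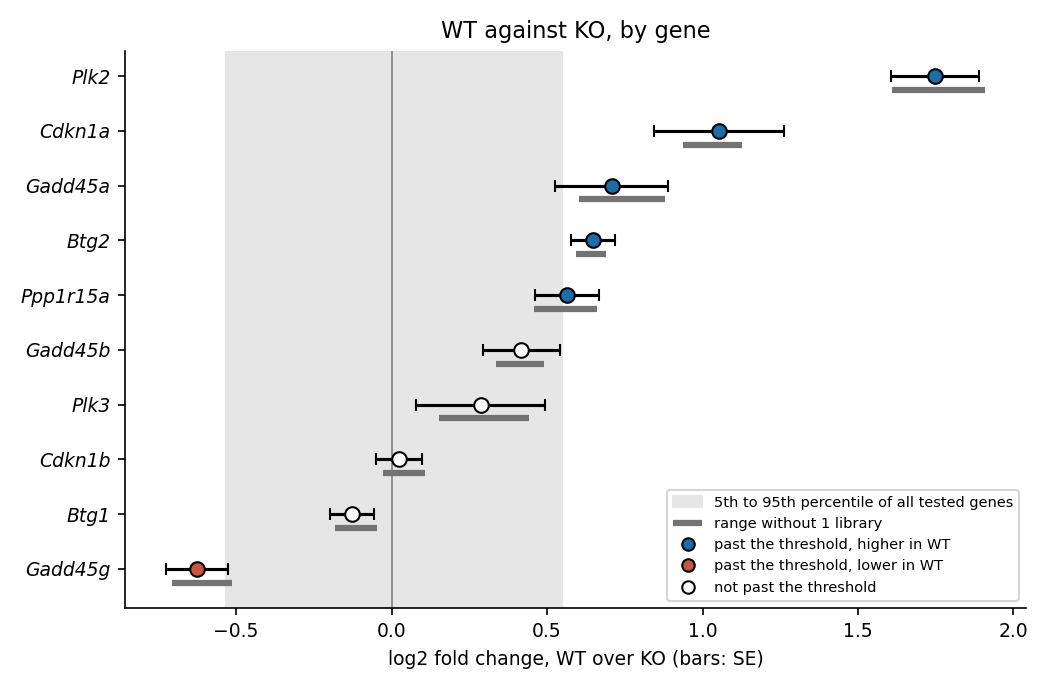
Log2 fold change (WT over KO) of each growth arrest gene with its standard error (thin bars) and its range when each library was left out in turn (thick grey bars), filled in color where past the threshold. The light grey band spans the 5th to 95th percentile of all tested genes, from -0.53 to 0.55, and Plk2 (1.75) and Cdkn1a (1.05) lay farthest to the right of the band and Gadd45g (-0.63) lay to its left, while Plk3, Gadd45b, Btg1 and Cdkn1b were inside it.

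Plk2 differed most between WT and KO among the 10 genes. It is a gene of 14 exons on chromosome 13 (110395046 to 110400844, plus strand, GRCm38/mm10). Its level was 78.7, 101 and 75.5 CPM in the WT libraries and 30.5, 23.4 and 21.7 CPM in the KO libraries. No KO library reached the lowest WT library, and the means were 84.9 ± 13.7 and 25.2 ± 4.64 CPM (SD, n = 3 each), a 3.36-fold difference (log2 fold change 1.75 ± 0.14 SE). Without the second WT library, which held the highest Plk2 level, the log2 fold change was 1.61 ± 0.14.

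The promoter of Plk2 is shown because it held a full cAMP response element, TGACGTCA, the palindrome bound by CREB family factors, which protein kinase A phosphorylates when cyclic AMP rises. It is the RefSeq sequence of GRCm38.p6, chr13:110394794-110395093, plus strand, from 250 bases before to 50 bases after the annotated start, with that element and each copy of its short form TGACG, on either strand, in capitals. The element began at position -62 from the start, and a separate short element lay after the start.
Plk2 promoter: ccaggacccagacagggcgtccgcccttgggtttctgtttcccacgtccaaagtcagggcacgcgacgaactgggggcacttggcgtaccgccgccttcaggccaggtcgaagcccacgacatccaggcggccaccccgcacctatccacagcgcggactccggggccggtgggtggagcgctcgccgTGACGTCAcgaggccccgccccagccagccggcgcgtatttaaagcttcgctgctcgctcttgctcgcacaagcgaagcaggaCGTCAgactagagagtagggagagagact

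Plk3, the closest relative of Plk2 on the list, is encoded on chromosome 4 (117128655 to 117133963, minus strand, 15 exons) and overlaps Tctex1d4 on the opposite strand. It was measured at 15.7, 20.2 and 23.2 CPM in WT and at 13.6, 19.5 and 15.3 CPM in KO libraries. The groups overlapped, and the log2 fold change of 0.29 ± 0.21 was little more than its standard error (0.27 ± 0.22 without the second WT library). The ratio of Plk2 to Plk3 counts within a library was 4.42 ± 1.00 in WT and 1.62 ± 0.552 in KO libraries (SD, n = 3 each).

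The 3 Gadd45 genes, each of 4 exons, did not move together. Gadd45g (chromosome 13, 51846678 to 51848468, plus strand) was lower in WT, at 94.96, 124 and 119.7 CPM against 179, 155 and 187 CPM in KO libraries. Every WT library was below every KO library, and the WT mean of 113 ± 15.5 CPM was 64.8% of the KO mean of 174 ± 16.9 CPM (log2 fold change -0.63 ± 0.10, or -0.70 ± 0.10 without the second WT library). Of the 10 genes it was the single one whose WT libraries all lay below the KO libraries.

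Gadd45a (chromosome 6, 67035096 to 67037457, minus strand), a p53 target, was measured at 35.3, 23.0 and 34.5 CPM in WT and at 21.1, 18.3 and 17.4 CPM in KO libraries. The groups did not overlap, but the second WT library, at 23.0 CPM, lay close to the highest KO library. The log2 fold change was 0.71 ± 0.18 in all libraries and 0.88 ± 0.17 without that library. Leaving out any of the other 5 libraries took Gadd45a out of the genes past the threshold, with log2 fold changes of 0.60 without the first and 0.62 without the third WT library and of 0.79, 0.68 and 0.65 without the first, the second and the third KO library. The gene overlaps the antisense transcript E230016M11Rik, and whether counting used the strand is not stated.

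Gadd45b (chromosome 10, 80930073 to 80932204, plus strand), an NF-κB target that protects B cells from apoptosis, was measured at 50.0, 61.6 and 54.8 CPM in WT and at 43.2, 39.7 and 41.5 CPM in KO libraries. All WT values were above all KO values, with means of 55.5 ± 5.88 and 41.5 ± 1.77 CPM, yet the log2 fold change of 0.42 ± 0.12 did not pass the threshold across all genes (0.34 ± 0.13 without the second WT library).

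The promoter of Gadd45g (chr13:51846425-51846724, plus strand, GRCm38.p6) is also shown. The other promoters printed, of Plk2, Ppp1r15a and Btg2, were picked because they held the full element. Those of Gadd45a and Cdkn1a, also higher in WT, held neither the full element nor a short one and are not printed. The Gadd45g promoter likewise held neither, and therefore has no capitals, but it held a CCAAT box beginning at -78 and a TATA box at -27. The absence of these letters concerns this window of 300 bases only.
Gadd45g promoter: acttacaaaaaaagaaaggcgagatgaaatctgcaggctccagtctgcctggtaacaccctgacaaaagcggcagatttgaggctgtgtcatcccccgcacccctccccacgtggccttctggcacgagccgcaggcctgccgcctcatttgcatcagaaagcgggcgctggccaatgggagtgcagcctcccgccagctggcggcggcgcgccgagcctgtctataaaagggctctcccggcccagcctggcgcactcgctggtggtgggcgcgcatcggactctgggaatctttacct

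Ppp1r15a (chromosome 7, 45522916 to 45526268, minus strand, 3 exons) was higher in WT. Its level was 151, 183 and 155 CPM in WT and 112, 125 and 93.4 CPM in KO libraries. The groups did not overlap, and the means of 163 ± 17.6 and 110.2 ± 15.8 CPM differed 1.48-fold (log2 fold change 0.56 ± 0.10, or 0.47 ± 0.10 without the second WT library). The gene overlaps Tulp2 on the opposite strand. Its promoter (chr7:45526219-45526518, minus strand, GRCm38.p6) is shown for the full element, which began at -12, next to a separate short element at 7 and a TATA box at 15 bases after the start.
Ppp1r15a promoter: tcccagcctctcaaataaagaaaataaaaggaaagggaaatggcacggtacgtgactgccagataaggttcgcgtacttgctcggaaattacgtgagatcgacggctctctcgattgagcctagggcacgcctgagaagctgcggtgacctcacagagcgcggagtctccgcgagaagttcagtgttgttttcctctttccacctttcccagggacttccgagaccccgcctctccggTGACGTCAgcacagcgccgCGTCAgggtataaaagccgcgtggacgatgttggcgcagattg

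Btg2, also known as Tis21 or Pc3, lies on chromosome 1 (134075170 to 134079120, minus strand) and has 2 exons. The libraries held 549, 615 and 554 CPM in WT and 387, 363 and 347 CPM in KO cells. WT libraries stood above KO libraries without overlap, and the means of 573 ± 36.9 and 366 ± 20.1 CPM differed 1.57-fold (log2 fold change 0.65 ± 0.07, or 0.59 ± 0.07 without the second WT library). The Btg2 promoter (chr1:134079106-134079405, minus strand, GRCm38.p6) also held the full element, here farther from the start, at -166, and close to a CCAAT box at -173.
Btg2 promoter: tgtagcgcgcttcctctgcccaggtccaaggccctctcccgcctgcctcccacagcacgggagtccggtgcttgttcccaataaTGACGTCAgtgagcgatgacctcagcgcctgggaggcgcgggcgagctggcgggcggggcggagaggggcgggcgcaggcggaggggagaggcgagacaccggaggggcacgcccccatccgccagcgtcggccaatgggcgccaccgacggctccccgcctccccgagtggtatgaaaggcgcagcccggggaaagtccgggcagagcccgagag

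Btg1 (chromosome 10, 96617006 to 96622809, plus strand, 2 exons), the closest relative of Btg2, did not follow it. It was measured at 1097, 1247 and 1140 CPM in WT and at 1182, 1410 and 1216 CPM in KO libraries. The groups overlapped, and the log2 fold change was -0.13 ± 0.07, or -0.18 ± 0.07 without the second WT library. The ratio of Btg2 to Btg1 counts was 0.501, 0.494 and 0.486 in the WT libraries and 0.327, 0.258 and 0.286 in the KO libraries, a 1.71-fold difference between the genotypes.

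Cdkn1a, which encodes p21 and is the best known p53 target, lies on chromosome 17 (29090976 to 29100727, plus strand, 3 exons) and overlaps AC167363.2 on the opposite strand. Levels were 20.1, 21.8 and 20.8 CPM in WT and 11.01, 10.8 and 8.38 CPM in KO libraries. Every WT library held more than every KO library, and the means were 20.9 ± 0.856 and 10.06 ± 1.46 CPM, a 2.08-fold difference (log2 fold change 1.05 ± 0.21, or 1.02 ± 0.22 without the second WT library). Without the third KO library, the lowest of the 6, the log2 fold change was 0.94 and Cdkn1a no longer passed the threshold.

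Cdkn1b, which encodes p27 (chromosome 6, 134920401 to 134925513, plus strand, 2 exons), was measured at 395, 325 and 388 CPM in WT and at 361, 356 and 374 CPM in KO libraries. The groups overlapped around means of 369 ± 38.3 and 364 ± 9.27 CPM, and the log2 fold change was 0.02 ± 0.07. It was 0.11 ± 0.07 without the second WT library, the lowest of the 6, and changed sign to -0.03 without the first and -0.01 without the third WT library.

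Ratios of counts between 2 of these genes within a library do not depend on how libraries are scaled. The ratio of Plk2 to Gadd45g was 0.829, 0.814 and 0.631 in WT and 0.17, 0.151 and 0.116 in KO libraries. The 2 genes thus shifted against each other in every library, with mean ratios of 0.758 ± 0.11 and 0.146 ± 0.0274 that differed 5.22-fold. Within the Gadd45 family, the ratio of Gadd45b to Gadd45g was 0.494 ± 0.0341 in WT and 0.24 ± 0.0173 in KO libraries, and that of Gadd45a to Gadd45g was 0.282 ± 0.093 and 0.11 ± 0.0143. The ratio of Cdkn1a to Cdkn1b was 0.0572 ± 0.00864 and 0.0278 ± 0.00462. WT and KO libraries did not overlap in any of the 6 ratios. In each pair the first gene named had the larger log2 fold change, so this separation restates the levels given above. No share over other pairs of genes was taken. As the genes were chosen by this contrast, the ratios were not tested.

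**Figure D3:**
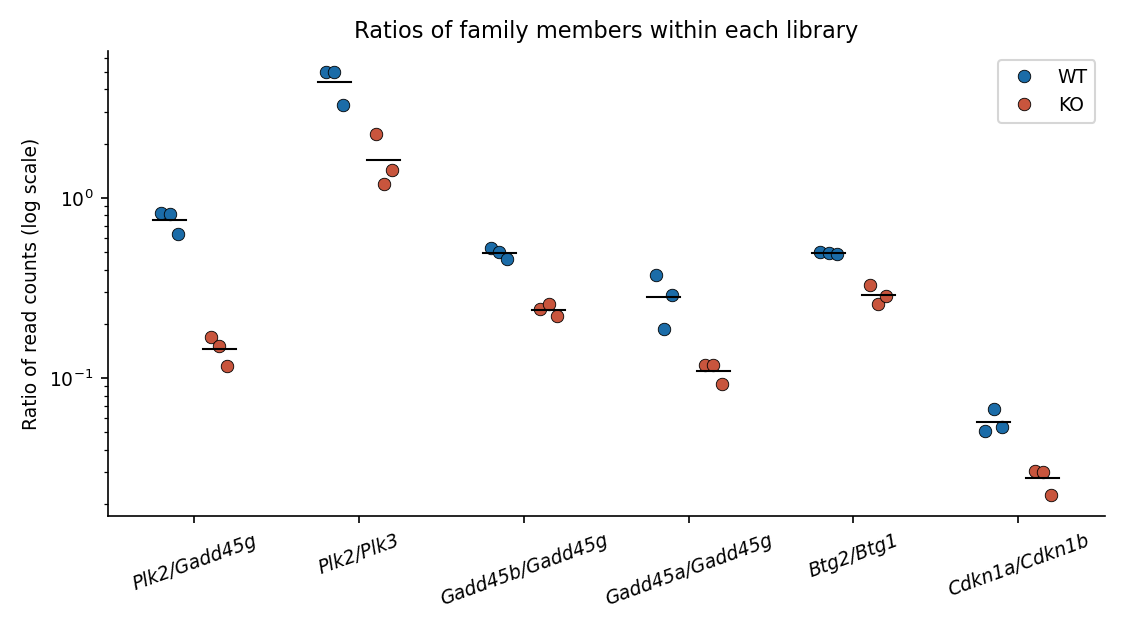
Ratios of read counts between pairs of growth arrest genes within each of the 3 WT and 3 KO libraries, on a log axis. The points of WT and KO libraries were apart in all 6 pairs, most widely for Plk2 over Gadd45g (5.22-fold), and least for Btg2 over Btg1 (1.71-fold). In each pair the first gene had the larger log2 fold change, so the separation restates the levels of the single genes.

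The promoters of the 10 genes were compared with all 32851 promoters, and their transcripts with those of tested genes. The choice of genes did not use these sequences. All promoters include those of genes not tested here. The promoters of the 10 genes were 54.7% to 72% GC, against a median of 52.7% for all promoters, and the motif shares below were not adjusted for this. Over the 11 RefSeq promoters of the 10 genes (Cdkn1a has a pair of starts), the full element TGACGTCA was found in 3 genes, Plk2, Ppp1r15a and Btg2, and in 1.79% of all 32851 promoters. All 3 were higher in WT, but the genes were chosen by this contrast, so nothing is read from that. In the pathway lists described further on, 81 of 104 genes had a promoter in the table, so the lists were covered only in part. Of the 81, 3 (3.7%) held the full element, Mcm5 and Ppm1d, which did not pass the threshold, and Cdkn2b, whose level was not tested. Of the pathway genes past the threshold, 4 had a promoter, and 0 of these held a full element. None of these shares, of the members or of the lists, was tested against that of all promoters. Cdkn1a and Gadd45a, also higher in WT, held neither the full element nor a short one. The short element TGACG on either strand, which every full element contains on both strands, was found in 6 genes and in 20.8% of all promoters. Of these, Plk3, Btg1 and Cdkn1b had short elements alone and did not pass the threshold.

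The CCAAT and TATA boxes were found in genes higher and lower in WT alike. The CCAAT box was found in 6 genes (37.4% of all promoters), including Gadd45g and Btg2. The TATA box, TATAAA, was found in 4 genes (13.6%), Ppp1r15a, Gadd45b, Gadd45g and Btg1, and the GC box, GGGCGG, in 8 genes (35.7%). No promoter of the 10 genes held the NF-κB motif (4.51% of all promoters) or the CArG box (1.63%). All motifs were searched on both strands, and a match is a run of letters and not a bound site.

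**Figure D4:**
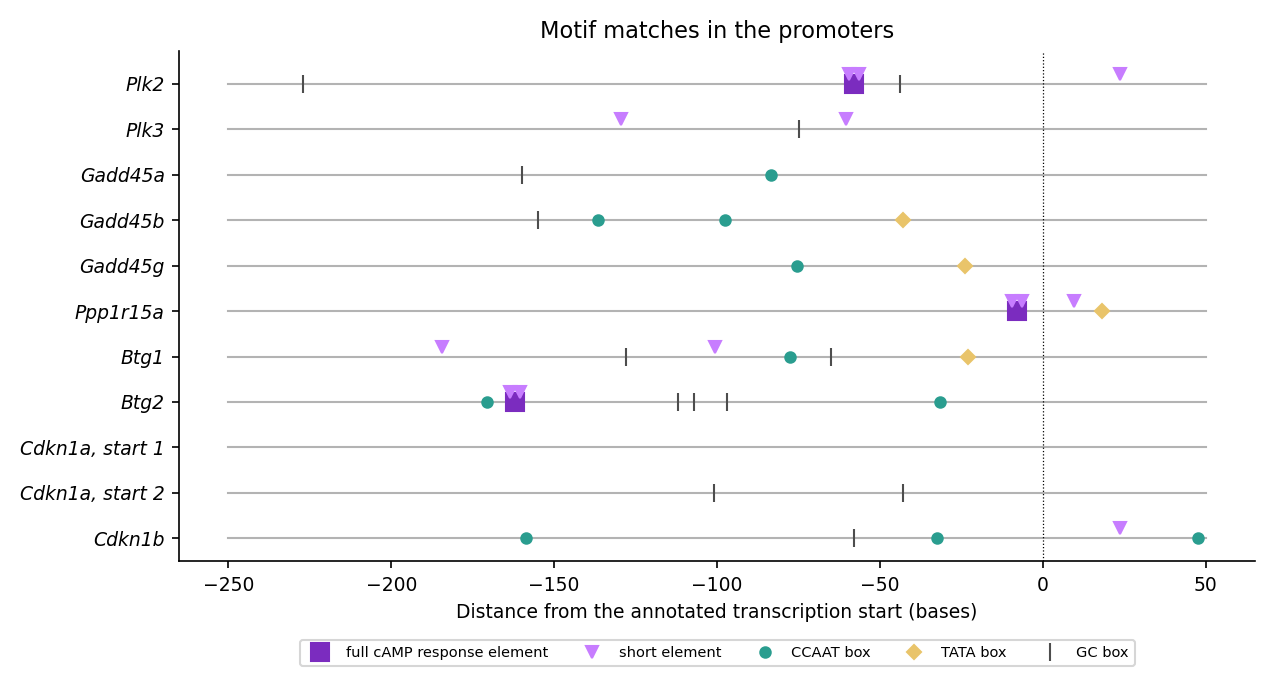
Motif matches, drawn at their centres, in the promoters of the growth arrest genes against the distance in bases from the annotated transcription start, from 250 before to 50 after it. Full cAMP response elements stood in Plk2, Btg2 and Ppp1r15a, and the promoters of Gadd45a, Gadd45b, Gadd45g and Cdkn1a held no short element.

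The 10 genes were short in exons, with 2 to 15 exons and a median of 3.5 against 9 for tested genes, and their transcripts had a median length of 2356 bases against 2966. The AU-rich pentamer ATTTA, a letter pattern found in unstable messenger RNAs, occurred at a median of 2.95 per kb of 3′ UTR, against 1.26 for tested genes. The longer nonamer, TTATTTA followed by 2 bases that are each A or T, was found in 4 of the 10 genes and in 16.2% of tested genes with an annotated 3′ UTR. Overlapping matches were each counted. There was 1 match in Plk2 and in Cdkn1a, 2 in Plk3 and 4 in Ppp1r15a, and none in the Gadd45 or Btg genes or Cdkn1b. The 4 matches of Ppp1r15a overlap in an AU-rich repeat of a 3′ UTR of 76 bases and are not separate sites. The first nonamer of each 3′ UTR (GENCODE M21, GRCm38) is shown in capitals with the bases beside it.
Plk2: aataaactttTTATTTATTacagccccaa
Plk3: tggaccacttTTATTTATTaacagacatt
Ppp1r15a: tagtttcctaTTATTTATTtatttattta
Cdkn1a: aaacttaaagTTATTTAAAaaaagaacaa

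The other genes of the members' pathways were taken from 8 lists drawn up by function, which held 104 genes of the table and 100 tested genes. The lists were chosen with earlier results of these data known, so nothing is read from their shares against those of all genes. Of the 100 tested genes, 6 (6%) were past the threshold, 4 higher and 2 lower in WT, against 1.82% of all genes tested. The median log2 fold change of the 100 was 0.01. At an unadjusted p under 0.05 there were 16 of the 100, against 11.9% of all genes tested. The median log2 fold change was 0.14 for the other polo-like kinases (2 tested genes), -0.03 for the Gadd45 partners (10), 0.01 for the BTG/TOB family with CCR4-NOT (14), -0.01 for the eIF2 genes (12), -0.02 for other CDK inhibitors (3) and for G1 cyclins, CDKs, RB and E2F (18), 0.06 for p53 and its targets (21) and 0.15 for proliferation genes (20).

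The clearest of them was Tob2, a relative of Btg1 and Btg2 that also recruits CCR4-NOT. Tob2 stood at 398, 446 and 416 CPM in WT and at 197, 240.4 and 218 CPM in KO libraries. The groups did not overlap, and the log2 fold change was 0.94 ± 0.08 (edgeR adjusted p = 4.49e-09), past the threshold also without each library in turn. In the same list, Prmt1, an arginine methyltransferase that binds BTG proteins, was lower in WT at 81.8 ± 4.40 against 106 ± 7.60 CPM (log2 fold change -0.37 ± 0.10, edgeR adjusted p = 0.0448), but not without any 1 of the 6 libraries (adjusted p of 0.0708 to 0.258). The CCR4-NOT subunit Cnot6l (365 and 356 CPM, adjusted p = 0.892) and the poly(A) binding protein Pabpc1 (1236 and 1268 CPM, adjusted p = 0.925), the most abundant genes of the list, did not pass.

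Of the 12 tested eIF2 genes, 2 were higher in WT and none was lower, against 1.3% and 0.514% of all genes tested. The median log2 fold change of this list was -0.01. Eif2ak3, the eIF2α kinase PERK of the endoplasmic reticulum, averaged 149.7 ± 20.1 CPM in WT cells and 107 ± 9.61 CPM in KO cells (log2 fold change 0.48 ± 0.10, edgeR adjusted p = 0.00707, or 0.115 without the third KO library). Ppp1r15b, the constitutive counterpart of Ppp1r15a, was measured at 200.2 ± 11.2 and 157 ± 4.84 CPM (0.35 ± 0.08, adjusted p = 0.0143). Its adjusted p was 0.0538 without the second WT library and 0.0608, 0.0519 and 0.129 without the first, the second and the third KO library. Atf4, the transcription factor translated when eIF2α is phosphorylated, was at 365 and 401 CPM (adjusted p = 0.601), and the phosphatase subunit Ppp1cb at 210.3 and 199 CPM (adjusted p = 0.791).

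The 21 tested p53 genes and targets did not include the 10 genes. Of these 21, 1 was lower in WT and none higher, against 0.514% and 1.3% of all genes tested. This was Bbc3, the proapoptotic gene encoding PUMA, at 37.9, 33.0 and 40.9 CPM in WT and 48.8, 54.3 and 62.0 CPM in KO libraries, without overlap (log2 fold change -0.56 ± 0.13, edgeR adjusted p = 0.0182). Its adjusted p was 0.066 without the second WT library, 0.0778 without the second and 0.225 without the third KO library. Bbc3 thus lay in the direction opposite to Cdkn1a and Gadd45a, which are p53 targets as well. The most abundant genes of the list were Mdm2, which encodes the ubiquitin ligase of p53 (129 and 131 CPM, adjusted p = 0.96), and Trp53inp1 (131 and 121 CPM, adjusted p = 0.746), and neither passed.

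Of all genes tested, 1.82% passed the threshold and 11.9% had an unadjusted edgeR p under 0.05. In the cell cycle machinery, none of the 18 tested genes of the G1 list passed with edgeR, DESeq2 or limma-voom. The most abundant were the D-type cyclin Ccnd2 (360.1 and 392 CPM, edgeR adjusted p = 0.914) and E2f2 (92.7 and 114 CPM, adjusted p = 0.114). Of the 18, 4 had an unadjusted edgeR p under 0.05, namely E2f2, Ccnd1, Ccnd3 and Cdk6, the last 3 named here after their values were seen. None of 3 other CDK inhibitors passed with any of these tools, 0 of them having an unadjusted p under 0.05, with Cdkn2d at 101 and 102 CPM (adjusted p = 0.963) and Cdkn2c at 3.52 and 3.90 CPM (adjusted p = 0.934). Of 20 tested proliferation genes, Mcm4, a subunit of the replicative helicase, was higher in WT (103 ± 7.53 and 79.2 ± 5.70 CPM; log2 fold change 0.38 ± 0.10, edgeR adjusted p = 0.0475), but not without any 1 of the 6 libraries (adjusted p of 0.0523 to 0.261), and its partner Mcm3 was not (103 and 111 CPM, adjusted p = 0.751). Of the 20 tested proliferation genes, 4 had an unadjusted edgeR p under 0.05. Of the 21 listed proliferation genes, 13 were under 10 CPM in both groups. The mitotic kinase Plk1 was measured at 3.15 and 3.32 CPM (adjusted p = 0.971) and the centriole kinase Plk4 at 39.6 and 30.7 CPM (adjusted p = 0.401), neither past the threshold with any of the tools, and Plk4 was the 1 with an unadjusted edgeR p under 0.05. Of the Gadd45 partners none of 10 passed with any of the tools. The most abundant were the kinases Mapk14, which is p38α (75.3 and 86.8 CPM, edgeR adjusted p = 0.433), and Map2k7 (79.97 and 72.5 CPM, adjusted p = 0.682). The 1 partner with an unadjusted edgeR p under 0.05 was Mapk11, which is p38β (62.7 and 81.4 CPM), named here after its values were seen.

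**Figure D5:**
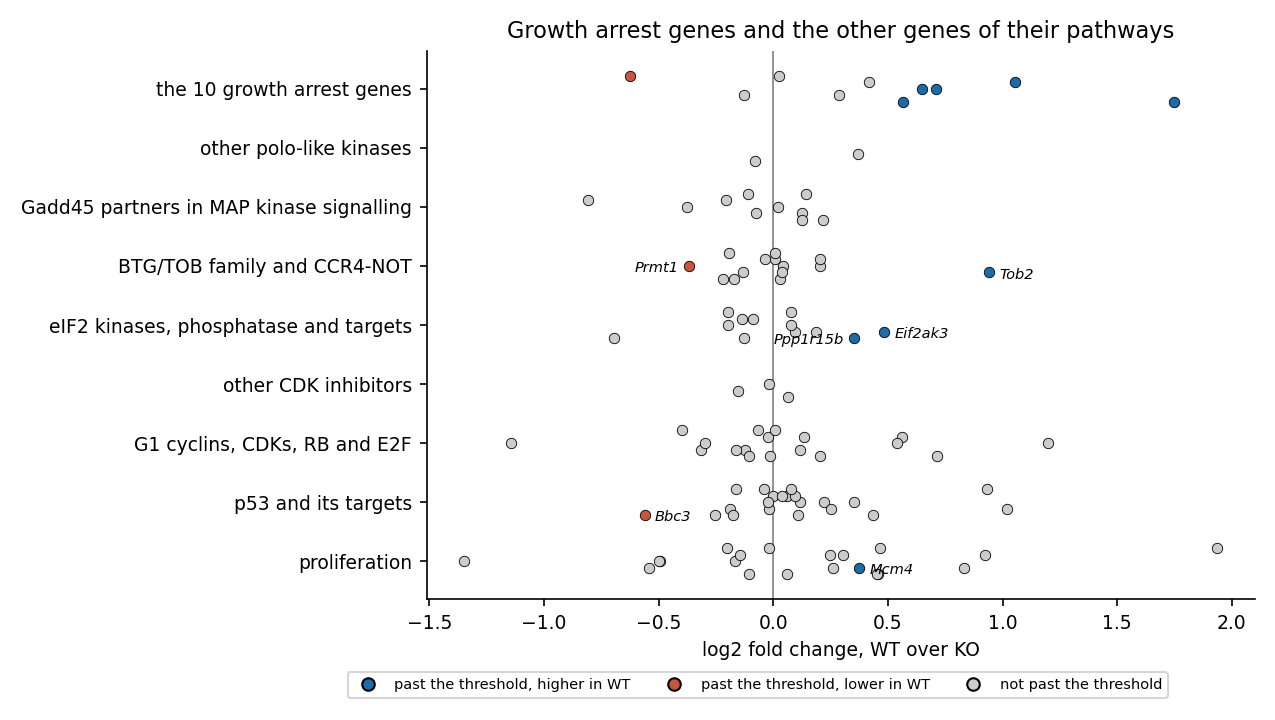
Log2 fold change (WT over KO) of the 10 growth arrest genes and of the 100 tested genes of their pathways, a row per list; each point is 1 gene, in color where past the threshold. The points of the 8 lists lay on both sides of 0, and 6 of them, labelled by name, were past the threshold.

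The genes whose levels followed those of Plk2 and Gadd45g most closely over the 6 libraries were found among 9682 genes by the smallest root mean square difference of centred log2 CPM, which is a description of likeness in these libraries. For Plk2 these were Nr4a1, which encodes an orphan nuclear receptor (difference 0.12; 2174 CPM in WT and 674.6 CPM in KO cells), the kinase gene Sik1 (0.22; 103 and 37.9 CPM), Bambi, a TGF-β pseudoreceptor gene (0.27; 17.1 and 3.56 CPM), Pvr (0.29; 15.8 and 6.71 CPM) and the AP-1 gene Fos (0.29; 42.1 and 13.1 CPM). None of the other growth arrest genes was among them, their largest log2 fold change being 1.05 (Cdkn1a) against 1.75 for Plk2. For Gadd45g these were Olfr164 (0.08; 13 and 18.9 CPM), Tmem154 (0.10; 12.9 and 17.7 CPM), Kctd9 (0.10; 7.24 and 11.3 CPM), Foxj3 (0.10; 11.2 and 15.9 CPM) and Grap, an adaptor of lymphocyte signalling (0.11; 192 and 268 CPM). Most genes of the Gadd45g group were at a low level, where counting error is a larger share of the spread. The measure includes the difference between WT and KO, so closeness to Plk2 or Gadd45g in part restates the log2 fold changes.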

How the data were processed

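Follicular B cells of 3 Gpr174+/Y and 3 Gpr174-/Y mice were sequenced with a 3′ kit. The authors aligned 50-base reads with STAR to mm10 and deposited raw HTSeq counts per gene; versions, annotation and strand use are not given in the sources used here. No gene in the table had fewer than 10 counts in all, and 8452460 to 10944833 counts per library set the precision. Counts were filtered (filterByExpr), TMM-normalized and tested with edgeR 4.0.16 (quasi-likelihood, robust, two-sided, Benjamini-Hochberg over 10514 genes, threshold 0.05) in R 4.3.3. The standard error is the log2 fold change over the root of F. Alternatives used DESeq2 1.42.0 and limma-voom 3.58.1. On simulated data the fold changes were recovered without bias, but fewer of the changed genes were called than the pass mark first set, which was then lowered, and the share of false calls was above the nominal rate. Replicates differed beyond sampling noise. The p-values set the difference between WT and KO against the spread between the 3 libraries of a genotype, estimated with information from all genes.

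The members and pathway lists were chosen with earlier results of these data known. Named were all members, pathway genes past the threshold and the 2 most abundant of each list, the 5 genes most like Plk2 and Gadd45g, and Gpr174. Positions and UTRs came from GENCODE M21, using the transcript with the longest coding sequence. Of the tested genes, 87.5% had an annotated 3′ UTR. Protein sequences were not used here.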

Additional observations from a re-analysis of the deposited data

How the results depend on the processing

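Of all genes tested, 191 were past the threshold in the main analysis and 95 at an adjusted p under 0.01. Leaving out each library in turn gave 91 (without the third KO library) to 183, and 113 without the second KO library. DESeq2 gave 258, limma-voom 172, library totals 196, no filter 218 and ordinary dispersions 170. Of the 10 growth arrest genes, 6 were past it, 5 with limma-voom (which lost Gadd45a), 5 at 0.01, and 4 to 6 without each library in turn. Plk2, Gadd45g, Ppp1r15a and Btg2 were past the threshold of 0.05 in each of these fits.

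Of the pathway genes 6 were past the threshold, 4 with limma-voom or ordinary dispersions, 5 with upper-quartile factors or library totals, and 2 at an adjusted p under 0.01. Without each library in turn there were 1 (without the third KO library) to 4, with 2 without the second WT library, 3 without the first and 2 without the second KO library. The cause was not tested.

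Signs changed when 1 library was left out, for genes not past the threshold in any of these fits. Their log2 fold changes ranged over -0.027 to 0.106 (Cdkn1b), -0.337 to 0.076 (Ccnd2), -0.513 to 0.115 (Cdkn2c), -0.058 to 0.016 (Cdkn2d), -0.010 to 0.090 (Cnot6l), -0.094 to 0.058 (Mdm2), -0.133 to 0.066 (Pabpc1), -0.304 to 0.171 (Plk1) and -0.013 to 0.222 (Trp53inp1).

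With the replicate number as a block, 281 genes, 6 growth arrest genes and 7 pathway genes were past the threshold. Deviations of same-numbered libraries correlated at 0.05, 0.014 and 0.043, so the numbers were not taken as pairs, although every library correlated best with its own number, a hint from the data and not from the design. On the log2 scale, other normalizations moved the all-gene median by at most 0.010.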
